A study of Mus musculus with 3 samples.

Results

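The transcription factor gene Foxn1 and 6 genes of the cortical thymic epithelium, Psmb11, Prss16, Ctsl, Tbata, Cd83 and Ly75, were read as unique molecular identifiers (UMIs) in single cells with at least 1 Epcam UMI. These 7 genes were chosen by name from the 32285 genes of the matrix. Of 8392 cells kept, 2544 carried an Epcam UMI and are called epithelial cells here. One lane of 5′ droplet sequencing held 2 pools on culture day 13, told apart by a hashtag antibody. ORFTOC, organoid reaggregate fetal thymic organ culture, gave 1421 of the epithelial cells and FTOC, fetal thymic organ culture, gave 1123. Both pools were wild type, and no treatment was compared. The paper names C57BL/6J mice for its cultures and gives no strain for the fibroblasts. ORFTOCs were made from thymic epithelial cells (TECs) of E16.5 mouse embryos that had been expanded as organoids, mixed with E13.5 thymus cells depleted of EpCAM-bearing cells and with mouse embryonic fibroblasts. FTOCs were whole E13.5 lobes put straight onto the same medium, which held the growth factor FGF7. That medium also held thiazovivin for the first 2 days, as did the medium of the organoids. The epithelium of the pools thus differed in embryonic age, in the organoid step and in reaggregation, and these cannot be told apart. Each pool mixed 2 cultures and counted as 1 sample, so no test between the pools was possible, and every interval below is a 95% interval for counting error only.

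Foxn1 encodes a forkhead transcription factor without which thymic epithelium does not differentiate. Cortical TECs present self peptides to immature thymocytes, and their best-known products serve that task. Psmb11 encodes beta5t, the catalytic subunit that defines the thymoproteasome and shapes peptides on MHC class I. Prss16 encodes the thymus-specific serine protease, and Ctsl encodes the lysosomal protease cathepsin L, both of which act in the MHC class II pathway. Cd83 encodes a surface protein that stabilises MHC class II and is also made by dendritic cells. Ly75 encodes the endocytic receptor CD205, used as a surface marker of cortical TECs and dendritic cells. Tbata is named for its expression in thymus, brain and testis.

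In the RefSeq annotation of GRCm38.p6, the build the submitters' processing notes name as mm10, Foxn1 lies at chr11:78357577-78386783, Psmb11 at chr14:54625310-54629556 and Tbata at chr10:61171964-61188841. Ly75 lies at chr2:60292103-60383273. Prss16 at chr13:22002176-22009741, Cd83 at chr13:43785112-43803133 and Ctsl at chr13:64361890-64370772 share a chromosome. RefSeq promoter entries were matched for 5 of the 7 genes, and Prss16 and Cd83 had no entry. The 250 bases before the transcript start that each entry uses were searched for GACGC, the core motif bound by FOXN1, on both strands. This motif was found in 22.6% of 32851 promoters of this length, and 5.86% held it at least 2 times. The Psmb11 promoter held 2 matches, both as the reverse complement GCGTC, beginning 239 and 62 bases before the start. The letters were not in the windows of Tbata (before the gene) or Ly75 (before the gene). Nor were they in the windows of Foxn1 (chr11:78386609-78386858, minus strand) and Ctsl (chr13:64370521-64370770, minus strand). These use a start inside the gene as given above, so that the Ctsl window and most of the Foxn1 window lie within it. The rest of the Foxn1 window lies before the outermost start of that gene. Bases further before it, and those before the outermost start of Ctsl, were not searched. The windows of Psmb11 (chr14:54625060-54625309, plus strand) and Tbata (chr10:61171714-61171963, plus strand) are shown, 5′ to 3′, because these genes had the largest pool ratios of the 7. Capitals mark the motif.
Psmb11: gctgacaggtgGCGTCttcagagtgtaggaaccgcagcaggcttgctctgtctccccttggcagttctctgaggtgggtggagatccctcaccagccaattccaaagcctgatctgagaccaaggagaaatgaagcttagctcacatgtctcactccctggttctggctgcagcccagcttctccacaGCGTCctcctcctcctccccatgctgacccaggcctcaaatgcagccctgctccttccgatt
Tbata: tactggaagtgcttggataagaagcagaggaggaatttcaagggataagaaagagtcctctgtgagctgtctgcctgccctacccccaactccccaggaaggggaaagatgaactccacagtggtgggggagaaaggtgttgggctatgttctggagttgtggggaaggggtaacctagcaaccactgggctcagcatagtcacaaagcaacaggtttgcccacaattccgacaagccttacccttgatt

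The Epcam rule let in cells of other types, which bears on Cd83 above all. By summed marker lists, 1232 of 1421 ORFTOC cells (86.7%) and 986 of 1123 FTOC cells (87.8%) were epithelial. Most of the rest, 180 and 130 cells, carried more immune than epithelial markers. In all Epcam-positive cells the 10 myeloid markers summed to 395 counts per 1e+06 UMIs (CPM) in ORFTOC and 42.5 in FTOC, and all 10 were detected in both pools. Among cells that were epithelial by the lists, these sums were 78.8 and 36.7 CPM. The 10 thymocyte markers summed to 315 and 328 CPM, and to 75.4 and 68.1 CPM in cells epithelial by the lists. Epithelial cells had a median of 12984 UMIs in ORFTOC and 11557 in FTOC.

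Foxn1, Psmb11, Prss16 and Tbata were largely confined to epithelial cells when set against cells with Ptprc and no Epcam, called immune cells. Foxn1 reached 60.8 CPM (57.4 to 64.4) in ORFTOC epithelium and 57.2 CPM (53.3 to 61.4) in FTOC epithelium, and 0.670 and 0.930 CPM in immune cells. Psmb11 reached 177 CPM and 39.8 CPM in epithelium and 2.01 and 1.70 CPM in immune cells. Prss16 reached 659 and 238 CPM in epithelium and 1.95 and 2.40 CPM in immune cells. Tbata stood at 1954 and 175 CPM in epithelium. It stood at 20.3 CPM in ORFTOC immune cells and 12.9 CPM in FTOC immune cells, and levels of Tbata at or below these were not read as expression. In cells with no UMI of Epcam, Ptprc or Pdgfra, Tbata stood at 69.8 CPM in ORFTOC and 58.7 CPM in FTOC. In FTOC cells with Pdgfra and neither Epcam nor Ptprc it stood at 39.7 CPM, from 31 UMIs in 1 cell. The label of an epithelial program thus held for these 4 genes against immune cells. The 3 others were less selective.

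Ctsl, Ly75 and Cd83 were not confined to the epithelium. Ctsl reached 5451 CPM in ORFTOC epithelium and 2071 CPM in FTOC epithelium, but a UMI was also seen in 100% of cells with Pdgfra and neither Epcam nor Ptprc, at 1546 and 1750 CPM. Ly75 stood at 72.9 and 37.2 CPM in epithelium and at 16.1 and 22.3 CPM in immune cells. Cd83 was lower in epithelium than in immune cells of the same pool, at 13.4 against 22.0 CPM in ORFTOC and 4.80 against 10.9 CPM in FTOC. Of 260 Cd83 UMIs in ORFTOC Epcam-positive cells, 143 lay in the 180 cells that were immune by the lists. One cluster of 34 cells, led by the macrophage complement genes C1qb, C1qa and C1qc, held Cd83 at 261 CPM, and 31 of its cells came from ORFTOC.

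Psmb11, Prss16, Ctsl, Tbata and Cd83 were at least 2-fold higher in ORFTOC than in FTOC epithelium, Ly75 fell just short of 2-fold, and Foxn1 was at nearly the same level in both pools. At least 10 CPM in 1 pool was reached by 9610 genes, of which 3.55% were at least 2-fold higher in ORFTOC, with a median log2 ratio of 0.00 against 1.47 for the 7 genes. Tbata was 11.2 times as high in ORFTOC (interval 10.7 to 11.7). Psmb11 was 4.45 times as high (4.07 to 4.88). For Prss16 the ratio was 2.77 (2.66 to 2.88), and for Ctsl it was 2.63 (2.60 to 2.67). Ly75 had a ratio of 1.96 (1.77 to 2.17), and Foxn1 one of 1.06 (0.971 to 1.17). Restricting the count to cells that were epithelial by the lists gave ratios of 4.70 for Psmb11, 2.93 for Prss16 and 1.14 (1.04 to 1.25) for Foxn1. In these cells Ly75 passed 2-fold, at 2.04 (1.84 to 2.27). For Cd83 the ratio of 2.79 (2.12 to 3.71) became 1.82 (1.29 to 2.61), from 6.81 CPM in ORFTOC and 3.74 CPM in FTOC. In cells immune by the lists Cd83 stood at 70.5 CPM in ORFTOC and 20.9 CPM in FTOC.

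**Figure D1:**
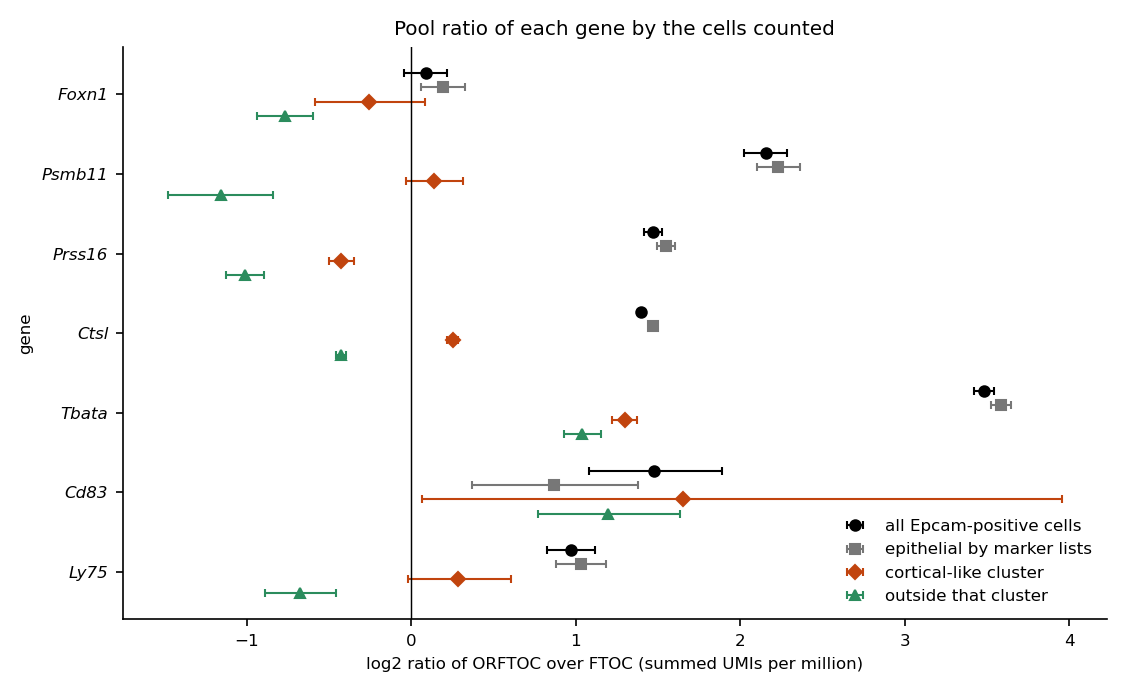
Log2 ratio of ORFTOC over FTOC (x axis, from CPM of summed UMIs) for each gene (y axis), with 95% counting intervals, over 4 sets of cells: all Epcam-positive cells, those epithelial by the marker lists, the cortical-like cluster, and Epcam-positive cells outside it. Foxn1, Psmb11, Prss16, Ctsl and Ly75 lie right of 0 or near it over all cells and left of 0 outside the cortical-like cluster, while Tbata and Cd83 lie right of 0 in each set. For Cd83 outside that cluster, 14 ORFTOC cells, 0% of them epithelial by the lists, held 65.9% of the UMIs.

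For Foxn1, Prss16, Ctsl and Ly75 the pools had a like share of cells with a UMI, while for Psmb11 and Tbata the share was higher in ORFTOC. To compare shares at 1 depth, cells were thinned to 5000 UMIs each, which left out 119 shallower cells of ORFTOC and 138 of FTOC. Foxn1 was then seen in 18.4% of the 1302 cells left in ORFTOC and in 17.7% of the 985 left in FTOC (unthinned, 29.4% and 30.9%). Prss16 was in 26.8% and 26.9% of cells (37.6% and 39.1% unthinned), although its summed level differed 2.77-fold. Ctsl was in 87.2% and 89.3% (91.3% and 91.0% unthinned), and Ly75 in 17.3% and 15.03% (27.6% and 26.7% unthinned). For these 4 genes the intervals of the shares overlapped between the pools. Psmb11 and Tbata differed in the share too. The share with Psmb11 was 14.4% in ORFTOC (interval 12.50 to 16.4) against 5.38% in FTOC (interval 4.06 to 6.98), or 17.0% and 8.10% unthinned. The share with Tbata was 28.6% (26.2 to 31.2) against 9.75% (7.97 to 11.8), or 33.2% and 14.9% unthinned. Cd83 was in 3.07% and 1.02%, or 5.77% and 2.58% unthinned. In immune cells thinned the same way, at unthinned medians of 6014 and 3340 UMIs, Foxn1 was in 0.0751% and 0.104% and Psmb11 in 0.526% and 0.313%. Tbata was in 5.33% and 2.92% of those immune cells, beside 28.6% and 9.75% in epithelium.

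UMIs were concentrated in few cells. The 143 ORFTOC cells with the most Psmb11, about 1 in 10 of the pool, held 95.7% of its UMIs. In FTOC only 91 cells had a Psmb11 UMI at all, fewer than the 113 that make up such a share. Top cells chosen the same way held 91.6% of Prss16 and 84.7% of Tbata in ORFTOC, and 84.4% and 97.8% in FTOC. Foxn1 was more evenly spread, with 65.7% and 61.6% of its UMIs in those cells and a highest count of 14 and 11 UMIs in a cell. A single UMI was all that was seen in 39.5% of Foxn1-positive ORFTOC cells and 47.8% of those of FTOC. The highest counts in a cell were 128 and 90 UMIs for Psmb11, 293 and 237 for Prss16, 1349 and 1270 for Ctsl and 656 and 305 for Tbata. The brightest single cells of Prss16 and Ctsl were alike in the pools. At least 5 Prss16 UMIs were in 210 ORFTOC cells and 96 FTOC cells, and at least 5 Psmb11 UMIs in 135 and 25.

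Epithelial cells were clustered without the 7 genes, so that a cluster could be compared with them. Of 13 clusters, 1 was enriched for the markers set for cortical TECs, Ccl25, Cxcl12, Dll4, Enpep and Kitl, at a mean log2 fold of 2.03 over the other clusters. The next highest, at -0.13, was the cluster led by Igfbp2, Ndufa4l2 and Aqp3, mostly of FTOC cells, and all 5 markers were detected in both. The enriched cluster was led by Ccl25, a chemokine that attracts thymocyte precursors, A630076J17Rik and Crip3, and is called cortical-like. It held 278 cells, 251 of ORFTOC and 27 of FTOC, that is 17.7% and 2.40% of the epithelial cells of each pool. Since 90.3% of it came from 1 pool, and Ccl25, which helped to define it, was itself higher in ORFTOC (521 against 81.7 CPM), its size is given as a description. In this cluster Psmb11 stood at 824 CPM, Prss16 at 3063 CPM, Ctsl at 21698 CPM, Tbata at 8474 CPM, Ly75 at 274 CPM and Foxn1 at 180 CPM over both pools. Thinned to 5000 UMIs, its cells had a UMI of Ctsl in 100%, of Tbata in 95.2%, of Prss16 in 81.5%, of Psmb11 in 62.7%, of Ly75 in 56.5% and of Foxn1 in 55.0%. Each of these genes was higher there than in any other of the 6 largest clusters.

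A smaller share of Foxn1 than of Psmb11, Prss16, Ctsl, Tbata or Ly75 lay in the cortical-like cluster, and of Cd83 a smaller share still. That cluster held 59.8% of the Foxn1 UMIs of ORFTOC epithelium and 10.9% of those of FTOC, from 20.5% and 2.95% of all UMIs. It held 96.4% and 55.9% of the Psmb11 UMIs, 94.2% and 61.6% of Tbata, 92.6% and 49.4% of Prss16, 83.0% and 26.3% of Ctsl, 78.6% and 18.2% of Ly75, and 35.8% and 4.55% of Cd83. Outside it, Foxn1 was highest in a cluster of 151 cells led by Calcb, the autoimmune regulator Aire and Insm1, at 77.5 CPM and in 26.7% of thinned cells, where Psmb11 stood at 3.80 CPM and was in 2.74% of cells. The largest cluster (588 cells, led by Ccl11, Krt14 and Rgs5) had Foxn1 at 51.5 CPM and Psmb11 at 14.1 CPM. A cluster of 325 cells led by Igfbp2, Ndufa4l2 and Aqp3, 305 of them from FTOC, had Foxn1 at 49.9 CPM, Psmb11 at 31.6 CPM and Prss16 at 206 CPM. The cluster led by the airway genes Bpifa1 and Reg3g and by Hp (478 cells) had Foxn1 at 14.2 CPM and Psmb11 at 8.24 CPM. In 15 cells led by the parathyroid gene Pth, no UMI of Foxn1 or Psmb11 was found. The clusters led by Xcl1, by Cd8b1 and by C1qb, all with immune genes, held Foxn1 at 0 to 1.76 CPM. A cluster of 117 cells led by Igfbp7, Col6a2 and Cxcr6, 54 of them epithelial by the lists, had Foxn1 at 46.0 CPM. Among 26 cells led by the tuft cell gene Gnat3, Gng13 and Gnb3, Tbata stood at 570 CPM, from 234 UMIs in 4 cells.

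**Figure D2:**
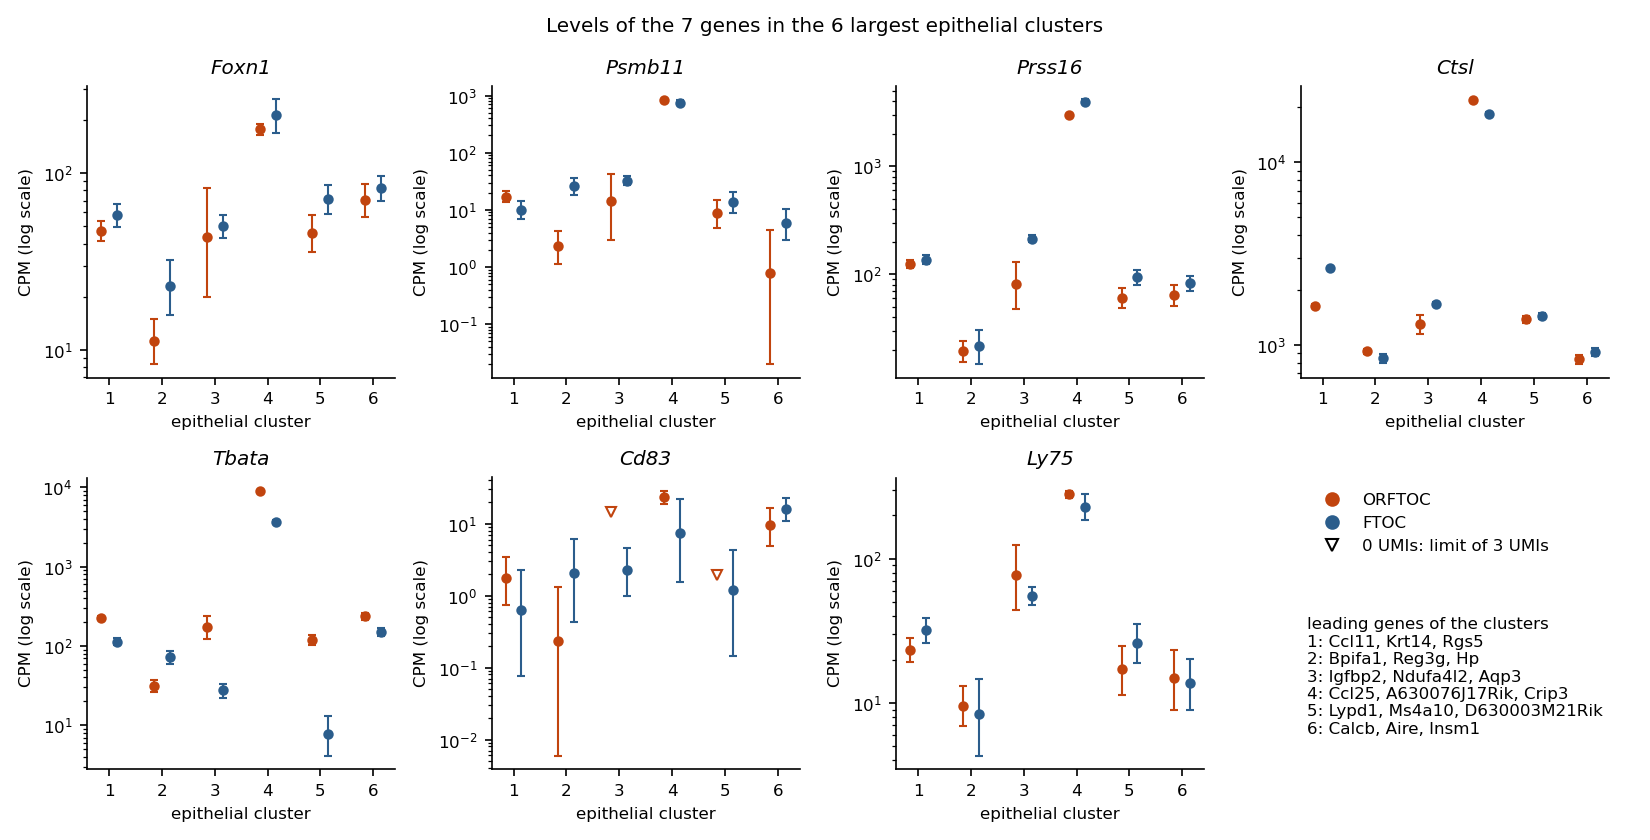
Level of each gene (y axis, CPM on a log scale, its own range in each panel) in the 6 largest epithelial clusters (x axis), for ORFTOC and FTOC, with exact Poisson intervals. Open triangles mark 0 UMIs, drawn at the CPM of 3 UMIs. Cluster 4 is the cortical-like cluster, where Psmb11 stood at 831 CPM in ORFTOC and 754 CPM in FTOC, above the other clusters of both pools.

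Within the cortical-like cluster Foxn1, Psmb11 and Ly75 did not differ between the pools beyond counting error, Tbata and Ctsl were higher in ORFTOC and Prss16 was lower. Psmb11 stood at 831 CPM (803 to 860) in the 251 ORFTOC cells and 754 CPM (672 to 844) in the 27 FTOC cells, a ratio of 1.10 (0.980 to 1.24). Foxn1 stood at 177 CPM (164 to 191) and 212 CPM (170 to 262), a ratio of 0.835 (0.667 to 1.06). Ly75 stood at 279 and 229 CPM, with a ratio of 1.22 (0.985 to 1.52). The intervals of these 3 ratios include 1, and they still allow a difference of the size of their bounds. Ctsl was 1.19 times as high in ORFTOC (1.16 to 1.22), and Prss16 was lower there, at 2969 against 3988 CPM (ratio 0.744, 0.707 to 0.785). Tbata remained 2.46 times as high in ORFTOC (2.33 to 2.59), at 8965 against 3645 CPM. Cd83 rested on 93 and 3 UMIs (ratio 3.15, 1.05 to 15.6).

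Outside the cortical-like cluster Foxn1, Psmb11, Prss16, Ctsl and Ly75 were lower in ORFTOC. The share of all genes that were lower in these cells was not computed. The mix of cells also differed, as the Igfbp2 cluster gave 305 of the 1096 FTOC cells and 20 of the 1170 ORFTOC cells. Over all Epcam-positive cells Foxn1 had been at nearly the same level in the pools, and the others of this group had been higher in ORFTOC. Foxn1 was at 30.8 CPM in ORFTOC and 52.5 CPM in FTOC, a ratio of 0.587 (0.521 to 0.660). Psmb11 was at 8.09 and 18.1 CPM (ratio 0.448, 0.358 to 0.558), Prss16 at 61.6 and 124 CPM (0.497, 0.458 to 0.539), Ctsl at 1169 and 1571 CPM (0.744, 0.729 to 0.759) and Ly75 at 19.7 and 31.4 CPM (0.627, 0.539 to 0.728). Cd83 was at 10.8 CPM in ORFTOC and 4.72 CPM in FTOC, but 14 ORFTOC cells with at least 5 UMIs, none of them epithelial by the lists, held 65.9% of it. Few cells carried the Psmb11 there: 13 of 1096 FTOC cells with at least 5 UMIs held 57.3% of it, at a median of 20400 UMIs per cell against 11467 for all cells outside the cluster. Foxn1 was lower in ORFTOC within each of the 6 largest clusters, with ratios from 0.491 to 0.861. The interval excluded 1 in the clusters led by Ccl11, by Bpifa1 and by Lypd1. In the Ccl11 cluster, the largest, Psmb11 was higher in ORFTOC (ratio 1.71, 1.12 to 2.67). The interval of Prss16 there included 1 (0.905, 0.798 to 1.03), while Ctsl (0.623) and Ly75 (0.734) were lower. Tbata was higher in ORFTOC in 5 of the 6 largest clusters and lower in the Bpifa1 cluster (30.9 against 71.6 CPM). Few cells carried it outside the cortical-like cluster: 64 of 1170 ORFTOC cells with at least 5 UMIs held 88.8% of it. In FTOC, 36 of 1096 cells held 83.0%. In the cluster led by Lypd1, Ms4a10 and D630003M21Rik Tbata was at 118 CPM in ORFTOC and 7.72 CPM in FTOC. The latter is below the 12.9 CPM of FTOC immune cells. The share of thinned cells with Tbata in that cluster was 5.65% in ORFTOC and 5.07% in FTOC. It was 19.3% and 19.1% in the Aire cluster, 9.03% and 7.14% in the Bpifa1 cluster and 20.9% and 14.3% in the Ccl11 cluster.

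To hold the mix of clusters equal, each cluster of ORFTOC was given its share of UMIs in FTOC. The log2 ratio of Psmb11 then went from 2.16 to -0.22, of Prss16 from 1.47 to -0.59, of Ctsl from 1.40 to -0.18, of Cd83 from 1.48 to -0.48, of Ly75 from 0.97 to 0.11 and of Foxn1 from 0.09 to -0.35. That of Tbata went from 3.48 to 1.28 and stayed above 2-fold. This weighting leans on 20 ORFTOC cells for the cluster led by Igfbp2, which made up 27.2% of FTOC epithelium.

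Co-detection asked how often the 7 genes were found in the same cell at 5000 UMIs. In ORFTOC, 104 of 239 Foxn1-positive cells (43.5%, 37.1 to 50.1) also had Psmb11, against 7.81% of Foxn1-negative cells. In FTOC, 28 of 174 Foxn1-positive cells (16.1%, upper bound 22.4) had Psmb11, against 3.08% of Foxn1-negative cells. Cells with both genes were 3.03 and 2.99 times as frequent as the product of the shares. Read the other way, Foxn1 was found in 55.6% of Psmb11-positive ORFTOC cells and 52.8% of Psmb11-positive FTOC cells. The pools thus differed in how many Foxn1-positive cells had Psmb11 and less in how many Psmb11-positive cells had Foxn1, where the intervals overlapped. Tbata was in 68.2% of Foxn1-positive ORFTOC cells and 19.0% of those of FTOC, Prss16 in 56.9% and 46.0%, and Ly75 in 39.7% and 23.0%. Among Psmb11-positive cells Tbata was in 92.0% in ORFTOC and 45.3% in FTOC, and Prss16 in 84.0% and 73.6%. Cd83 was in 40 ORFTOC cells and 10 FTOC cells, and 24 of the 40 also had Ly75.

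**Figure D3:**
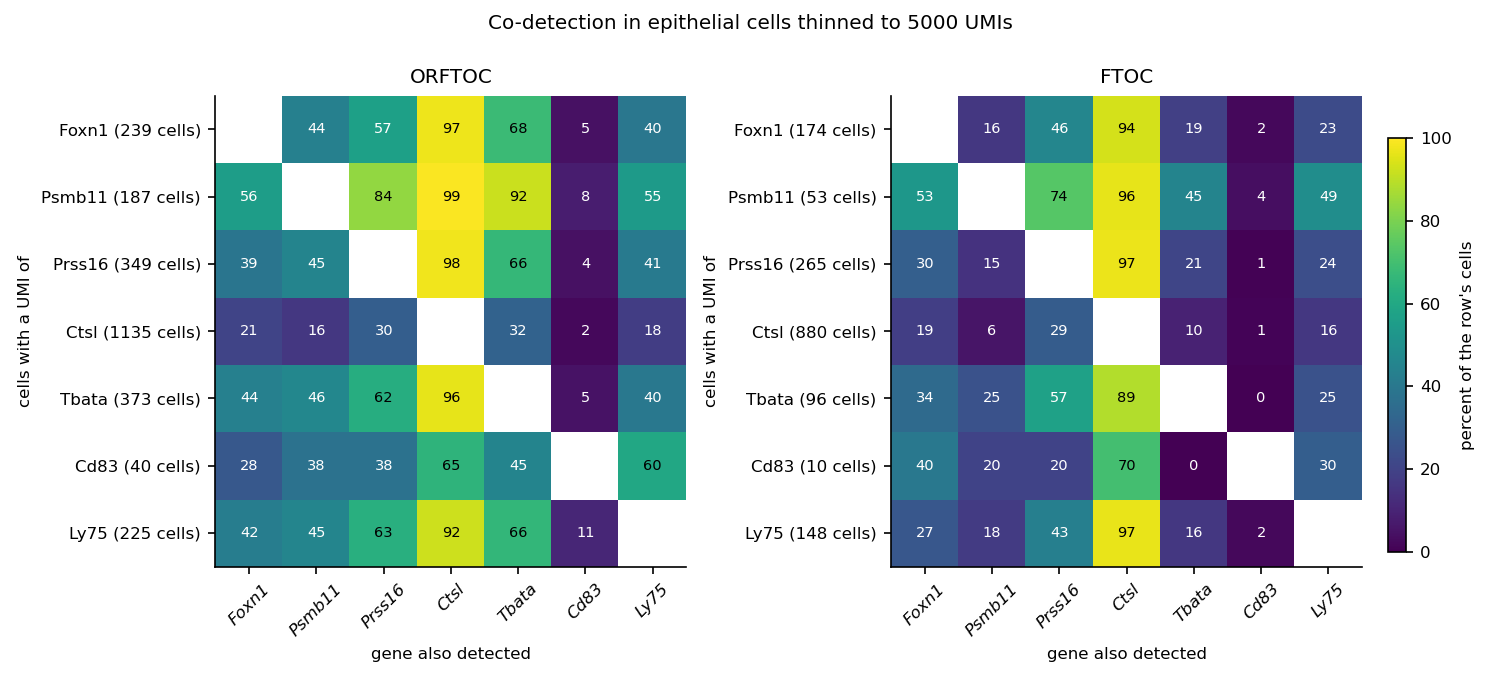
Percent of cells with a UMI of the row's gene (y axis, number of such cells in brackets) that also had a UMI of the column's gene (x axis), in epithelial cells thinned to 5000 UMIs, for 1302 ORFTOC cells and 985 FTOC cells. Psmb11 was found in 43.5% of Foxn1-positive cells in ORFTOC and 16.1% in FTOC, while its own row shows Foxn1 at 55.6% and 52.8%.

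Within the cortical-like cluster, thinned cells with a Foxn1 UMI and thinned cells without one had Psmb11 at similar shares. In ORFTOC the shares were 66.7% of 132 cells and 58.8% of 114 cells, and both genes were seen together 1.06 times as often as the product of their shares. In FTOC 9 of 17 cells with Foxn1 and 6 of 8 without it had Psmb11, or 0.882 times the product. Tbata was in 96.2% and 95.6% of ORFTOC cortical-like cells with and without a Foxn1 UMI. Unthinned, Foxn1 was in 79.7% of ORFTOC and 88.9% of FTOC cortical-like cells, against 53.7% and 68% of thinned cells. Cells counted as without a Foxn1 UMI thus included cells that lost it on thinning. These shares therefore do not compare cells with and without Foxn1 expression, and whether Psmb11 or Tbata depended on Foxn1 was not tested. Outside the cluster, where Foxn1 was in 107 of 1056 ORFTOC cells and 157 of 960 FTOC cells and Psmb11 in 32 and 38, the ratio to the product was 4.93 in ORFTOC (16 cells with both) and 3.06 in FTOC (19 cells). Among cells there that were epithelial by the lists it was 4.67 and 2.89.

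Psmb11, Tbata and Prss16 were each seen in a higher share of cells with 1 Foxn1 UMI than of cells with none, in both pools, with smaller steps beyond. Cd83 did not follow this pattern, and was rare throughout. In ORFTOC, Psmb11 was in 7.81% of cells with 0, 38.5% of 156 cells with 1, 52.8% of 53 cells with 2 and 53.3% of 30 cells with 3 or more Foxn1 UMIs. Tbata was in 19.8%, 67.3%, 67.9% and 73.3% of these cells, and Prss16 in 20.04%, 51.9%, 66.0% and 66.7%. From 1 UMI upward the intervals overlapped for all 3 genes. In FTOC, Psmb11 was in 3.08% of 811 cells with 0 and 16.7% of 126 cells with 1, and only 33 and 15 cells had 2 and 3 or more.

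**Figure D4:**
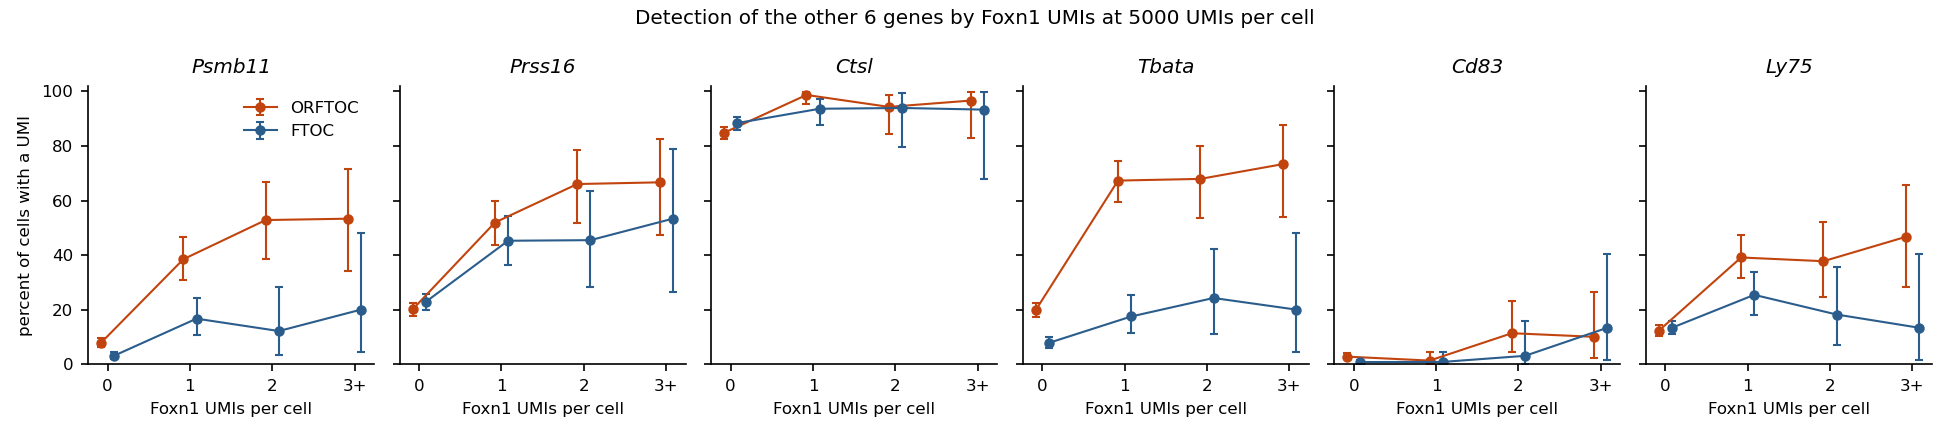
Percent of epithelial cells with a UMI of each of the other 6 genes (y axis) by the number of Foxn1 UMIs in the cell at 5000 UMIs (x axis), with Clopper-Pearson intervals, for ORFTOC and FTOC. Psmb11 goes from 7.81% to 53.3% of cells in ORFTOC, and the step from 0 to 1 Foxn1 UMI is the steepest.

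Counting how many of the 7 genes a cell showed, the mean was 1.96 ± 1.60 (SD over cells) in ORFTOC and 1.65 ± 1.11 in FTOC at 5000 UMIs. All 7 were seen in 6 of 1302 ORFTOC cells and 0 of 985 FTOC cells. ORFTOC had more cells with many of the 7. Seen together were 5 genes in 73 ORFTOC and 17 FTOC cells, and 6 genes in 59 and 8. None of the 7 was detected in 9.37% of ORFTOC cells and 7.31% of FTOC cells. Cells of other types were among these. In the cluster led by Xcl1, 2 of 133 cells were epithelial by the lists. Ctsl, the gene most often seen there, was in 12 of its 76 thinned ORFTOC cells and 8 of 43 FTOC cells. In the cortical-like cluster the mean was 4.54 ± 1.26 over 246 ORFTOC cells and 4.84 ± 0.943 over 25 FTOC cells. Outside it, the mean was 1.35 ± 0.935 in ORFTOC and 1.57 ± 0.979 in FTOC, where 56.6% and 49.3% of cells showed 1 gene.

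**Figure D5:**
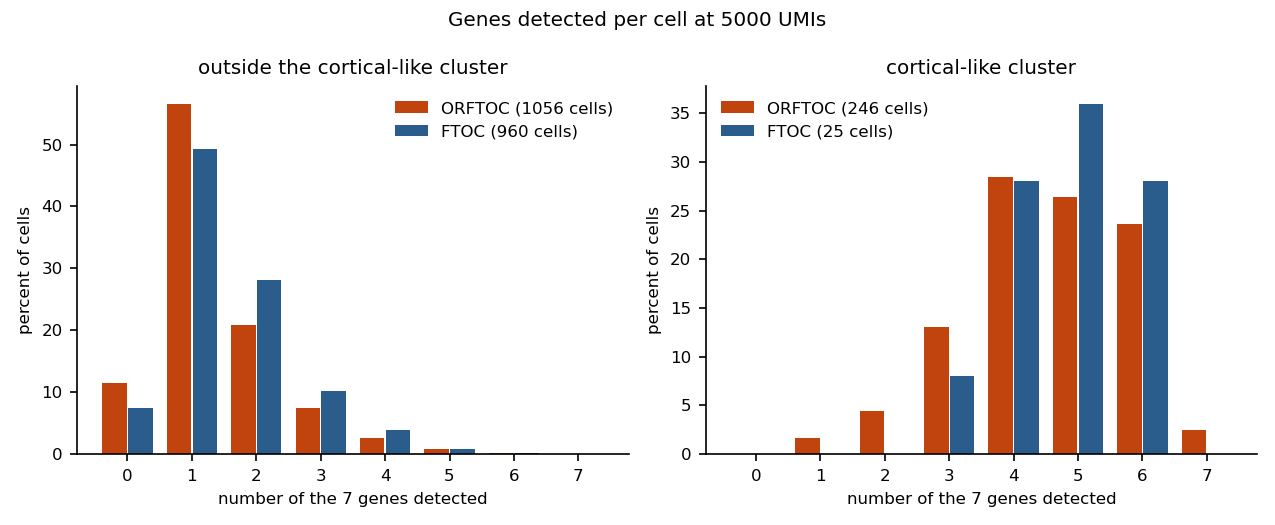
Percent of cells (y axis) by how many of the 7 genes had a UMI at 5000 UMIs per cell (x axis), outside and inside the cortical-like cluster, for ORFTOC and FTOC. Outside the cluster 1 gene was the most frequent number, in 56.6% of ORFTOC and 49.3% of FTOC cells, and cells inside it mostly 4 to 6 in both pools.

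All other genes were compared between Foxn1-positive and Foxn1-negative cells of a pool, at equal depth, where at least 50 CPM was reached in either. Of 3697 genes in ORFTOC 5.27% were at least 2-fold higher in positive cells, and of 3526 genes in FTOC 1.45%. Of the other 6 genes of the program 5 reached this level, Cd83 being the exception. All 5 were at least 2-fold higher in ORFTOC, and in FTOC 4 were, with Ly75 at a log2 ratio of 0.85. Among cells epithelial by the lists 5 in ORFTOC and 3 in FTOC were. Psmb11 had the highest ratio in the lower of the pools, with 526 against 74.3 CPM in ORFTOC and 105 against 15.5 CPM in FTOC. Of genes outside the 7, Trpm2, a cation channel gene, had log2 ratios of 2.21 and 2.34, and Cd274, which encodes the ligand PD-L1, had 2.03 and 2.05. Ccl25 had 2.84 and 1.93, Calcb 3.99 and 1.91, and A630076J17Rik 1.89 and 2.14. Calcb led the Aire cluster and Ccl25 the cortical-like cluster, so genes of both clusters were among these.

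Psmb11-positive and Psmb11-negative cells were further apart. At least 2-fold higher in positive cells were 8.47% of 3755 genes in ORFTOC and 5.8% of 3688 genes in FTOC. Of the list of 10 other cortical genes, 8 reached 50 CPM, and 7 in ORFTOC and 6 in FTOC were at least 2-fold higher. For Foxn1-positive cells 7 of these genes reached that level, of which 4 in ORFTOC and 1 in FTOC were at least 2-fold higher, or 2 and 1 among cells epithelial by the lists. Of 8 genes of MHC class II presentation, 3 were at least 2-fold higher in Psmb11-positive ORFTOC cells and 0 in FTOC. Of 8 lysosomal genes other than Ctsl, proteases and cystatin C, 7 were at least 2-fold lower in Psmb11-positive ORFTOC cells, where 7.7% of all genes compared were, and 0 of 7 in FTOC, where 4.8% were. Their medians were -1.28 and -0.45 on the log2 scale. Myeloid markers moved with this, at 38.5 CPM in Psmb11-positive and 345 CPM in Psmb11-negative ORFTOC cells, and at 30.2 and 44.2 CPM in FTOC. Among cells epithelial by the lists, a restriction added after seeing the data, 5 of 7 lysosomal genes were at least 2-fold lower in ORFTOC, where 6.99% of all genes were, and 0 of 7 in FTOC. The myeloid markers there still stood at 38.9 against 95.2 CPM in ORFTOC, and their part in the lysosomal difference was not tested further. In Foxn1-positive cells 5 of 8 lysosomal genes were at least 2-fold lower in ORFTOC, where 5.19% of all genes were, and 0 of 7 in FTOC, where 2.41% were. That count was 2 of 7 among ORFTOC cells epithelial by the lists. The medians over all genes compared were 0.07 and 0.08. Ctsl, at log2 ratios of 3.13 and 2.33 in Psmb11-positive over Psmb11-negative cells, thus went against the other lysosomal genes in that comparison.

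The other catalytic subunits of the proteasome were set beside Psmb11. Psmb5, the constitutive counterpart of beta5t, stood at 315 CPM in ORFTOC and 288 CPM in FTOC epithelium, and Psmb8, its immunoproteasome counterpart, at 423 and 299 CPM. None of these 6 catalytic genes and none of 11 other core subunits was 2-fold different between the pools, where 5.6% of all genes tested were. Their median log2 ratios were 0.24 and 0.13. In Foxn1-positive cells Psmb10 was higher, at 813 against 284 CPM in ORFTOC and 499 against 255 CPM in FTOC. Psmb8 was lower in them, at 332 against 469 CPM and 239 against 318 CPM. Myeloid markers were also lower in these cells, at 39.3 against 360 CPM in ORFTOC and 40.2 against 44.1 CPM in FTOC. Their part in the Psmb10 and Psmb8 differences was not tested. Psmb5 differed little, with log2 ratios of 0.36 and 0.20. Between the pools, Ccl25 was 2-fold higher in ORFTOC among the 10 other cortical genes and Cxcl12 2-fold lower, at 149 against 369 CPM. Of 8 genes each of MHC class I and class II presentation none was 2-fold different, again beside 5.6% of all genes, with medians of 0.12 and -0.05. Of 10 medullary genes 9 reached 10 CPM, of which Krt14 and Cldn4 were 2-fold higher and Aire 2-fold lower in ORFTOC (13.1 against 39.3 CPM), where 2.05% of all genes were 2-fold lower.

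The genes whose counts followed the members most closely from cell to cell were sought among 8317 genes seen in at least 5% of thinned cells of each pool. Pearson's r was computed over 1302 ORFTOC and 985 FTOC cells, which share 1 lane, and is a description of sparse counts. Leaving out the members, Foxn1 was followed by Slc46a2, a transporter gene (r = 0.41 in ORFTOC and 0.33 in FTOC), Pltp (0.44 and 0.29), Cstb (0.42 and 0.26), Tmem131l (0.37 and 0.29) and Psmb10 (0.37 and 0.25). Tbata, at 0.47 and 0.17, and Prss16, at 0.35 and 0.27, ranked between Tmem131l and Psmb10. The sum of the other 6 genes was followed by Cstb (0.78 and 0.57), Pltp (0.75 and 0.58), Gas6 (0.63 and 0.51), Cxcl12 (0.63 and 0.45) and Tmem131l (0.66 and 0.41). Ctsl outweighed the others in this sum, with 105989 UMIs in ORFTOC epithelium and 28482 in FTOC before thinning. Next came Tbata in ORFTOC (37985) and Prss16 in FTOC (3273), while Psmb11 gave 3444 and 547. Cstb, Pltp and Tmem131l were in both sets of 5.

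Expression of sex-linked genes moved with the pools, and its part in the pool differences was not tested beyond the values here. In FTOC 1029 of 1123 epithelial cells had an Xist UMI and none of 4 Y-linked genes, and 0 had the reverse. In ORFTOC 497 cells had Xist alone and 590 a Y-linked UMI alone, 94 had both and 240 neither. Among ORFTOC cells Psmb11 stood at 149 CPM (139 to 158) with Xist alone and 208 CPM (199 to 218) with a Y-linked UMI alone, and Foxn1 at 55.4 and 69.0 CPM. Comparing only cells with Xist alone, the log2 ratio of ORFTOC over FTOC was 1.86 for Psmb11, 3.29 for Tbata and -0.05 for Foxn1.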

How the data were processed

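One 10x Genomics 5′ single-cell lane was analysed, with the hashtag counts that assign barcodes to ORFTOC or FTOC. The authors deposited UMI counts per gene and barcode, unfiltered and not normalized, made with Cell Ranger 6.1.2 on mm10 according to the submitters' processing notes, which also name Seurat 4.2.0. The annotation is not given in the sources used here, and the T-cell receptor contigs were not used. The matrix held 705161 barcodes and 103984163 UMIs. Barcodes with at least 600 genes and 0.4 to 10% mitochondrial UMIs were kept (10245). HTODemux in Seurat 5.3.0 (R 4.3.3, quantile 0.99) assigned 8983 to 1 pool, with 590 doublets between pools and 672 without a hashtag. A further 591 were removed as doublets within a pool because of their neighbours (50 neighbours, 50 principal components).

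UMIs were summed per pool and cell class and scaled to CPM, with exact Poisson, exact conditional binomial (ratios) and Clopper-Pearson (shares) intervals at 95%, covering counting error only. Shares were compared after thinning to 5000 UMIs per cell. Epithelial cells were clustered without the 7 genes (18 components, 20 neighbours, leidenalg 0.10.2, resolution 0.4), in Python 3.11.15 with numpy 2.4.6, scipy 1.17.1, pandas 2.3.3 and scikit-learn 1.9.0. Scripts were tested on simulated data. The 7 genes, the gene lists and the markers were chosen with earlier results of these data known. Named beside them were list genes, the 5 genes most like Foxn1 and the 5 most like the others by Pearson's r, and the 5 genes with the largest lower log2 ratio of Foxn1-positive over Foxn1-negative cells. Cluster leaders, the Igfbp7 and Gnat3 clusters and the genes described within them were chosen after their values were seen. Alternatives changed hashtag assignment, the epithelial rule, doublets, cell filter, ambient RNA, cell weights, scaling and depth.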

Additional observations from a re-analysis of the deposited data

How the results depend on the processing

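Of 144 values computed under alternatives, 93 stayed within the counting error of the reported value (for counts of genes, within 1.5 times), 51 moved further and 0 reversed a called difference. Of 77 log2 ratios of ORFTOC over FTOC, 75 kept their sign. The exceptions were Foxn1 at -0.01 with hashtags by a ratio rule and at -0.053 in cells with Xist alone. Values that moved are given as log2 ratios by setting. With hashtags by the ratio rule, Prss16 was at 1.30, Ctsl at 1.28 and Tbata at 3.21. With at least 3 Epcam UMIs, Prss16 was at 1.55, Ctsl at 1.48, Tbata at 3.63 and Cd83 at 1.04. Without cells holding Ptprc or Pdgfra, Foxn1 was at 0.25, Prss16 at 1.58, Ctsl at 1.54, Tbata at 3.67 and Cd83 at 0.90. With epithelial cells by the marker lists, Prss16 was at 1.55, Ctsl at 1.47, Tbata at 3.56 and Cd83 at 0.87. With within-pool doublets kept, Prss16 was at 1.54, Ctsl at 1.46 and Tbata at 3.40. In cells with Xist alone, Psmb11 was at 1.86, Prss16 at 1.29, Ctsl at 1.28, Tbata at 3.29 and Ly75 at 0.78. With the ambient profile subtracted, Psmb11 was at 2.33, Prss16 at 1.58, Ctsl at 1.505, Tbata at 4.29 and Cd83 at 2.64. That profile was scaled to all thymocyte-marker UMIs of Epcam-positive cells, which took 14.9% of ORFTOC and 15.5% of FTOC UMIs as ambient. Cells immune by the lists also carried these markers, so both shares may be too high. With equal weight per cell, Prss16 was at 1.54, Ctsl at 1.35, Tbata at 3.55 and Ly75 at 0.73. Thinned to 5000 UMIs, Psmb11 was at 2.33, Prss16 at 1.54 and Ctsl at 1.36. The mean number of the 7 genes seen in an ORFTOC cell was 2.08 with at least 3 Epcam UMIs, 2.12 without Ptprc or Pdgfra, 2.11 by the marker lists and 1.88 with Xist alone. Thinned to 2000 UMIs, the mean was 1.46 in ORFTOC and 1.15 in FTOC, and Psmb11 was seen in 35.7% and 7.84% of Foxn1-positive cells. At cluster resolutions of 0.2 and 0.8, chosen after seeing the data, the FTOC share of Psmb11 UMIs in the cortical-like cluster was 63.3% and 64.4%, and Tbata within it was at 1.504 and 1.58. In Foxn1-positive ORFTOC cells epithelial by the lists, also chosen after seeing the data, 2 other cortical genes were at least 2-fold higher, against 4 in all Epcam-positive cells, and 2 lysosomal genes at least 2-fold lower, against 5. The cause of these moves was not tested.

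No paired analysis was possible because each pool is 1 sample. Leaving out a replicate was not possible for the same reason, so the spread between cultures is unknown. The cortical-like cluster held 27 FTOC cells, which limits each value within it.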

Other observations

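Cells with an Epcam UMI but no hashtag call were in no comparison. There were 345 of them, with a median of 3964 UMIs. In these cells Foxn1 stood at 27.9 CPM (21.0 to 36.2), Psmb11 at 13.9 CPM and Prss16 at 64.7 CPM. Ctsl stood at 924 CPM, Tbata at 76.6 CPM, Ly75 at 40.3 CPM and Cd83 at 2.49 CPM. For all but Ly75 these levels were below those of both pools.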
